A study of Mus musculus with 16 samples.

Results

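Inguinal subcutaneous adipose tissue (SAT) and mesenteric visceral adipose tissue (VAT) were compared within 4 obese mice. The comparison rests on the 8 libraries labelled obese, 4 of SAT and 4 of VAT, out of 16 libraries in the series. They were taken by label and matched by mouse number. The mice were male, wild-type C57BL/6J animals that received a high-fat Western diet, with 42% of its energy as fat and 0.2% cholesterol, for 12 to 14 months from an age of 10 weeks. The other 8 libraries hold the same 2 tissues of 4 lean males of matched age kept on a normal laboratory diet, and they enter the test of obese against lean mice and 1 alternative fit of the depot difference. Left and right inguinal SAT of a mouse were combined into 1 sample, visible vessels were dissected away, and mesenteric VAT was taken from the intact bowel. Each library holds poly-A RNA of whole tissue, so adipocytes, stroma, vessels and immune cells were read together. Whether lymph nodes within the fat were removed is not given in the sources used here.

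Inguinal fat lies under the skin of the groin, and mesenteric fat runs along the vessels of the gut and drains to the portal vein. The depots arise from different regions of the embryo, and their stromal cells keep the expression of transcription factors that mark position along the body. Visceral fat is covered by mesothelium, a sheet of epithelium-like cells that lines the body cavity, and contains small clusters of lymphocytes. Adipocytes of both depots store triglyceride and secrete hormones such as leptin, and in obesity macrophages gather around dying adipocytes.

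Total counts ranged from 10828758 to 16614407 in SAT. In VAT they were 2247737 for mouse 1 and between 10391573 and 11615347 for the others, so a single count of that library weighs 0.445 CPM (its count scaled by the library total). The main axis of variation, with 57.0% of the variance of log2 CPM, separated the depots, and the next, with 18.4%, set VAT of mouse 1 apart from the other VAT libraries. Adipocyte markers were abundant in every library. Adiponectin (Adipoq) was at 4904 ± 563 CPM in SAT and 3925 ± 949 in VAT (SD, n = 4). Scd1, which makes monounsaturated fatty acids, alone took between 23.7% and 25.7% of the counts in SAT and between 12.5% and 18.5% in VAT. By library totals, more transcripts exceeded 1 CPM in VAT (10799 to 11838) than in SAT (9367 to 10297). The number was higher in VAT in 4 of 4 mice (exact sign-flip permutation test over pairs, two-sided p = 0.125, the smallest that 4 pairs allow). With such scaling the larger share of Scd1 in SAT lowers the CPM of all other SAT transcripts, and its part was not tested. The highest number, 11838, was that of VAT of mouse 1, the library with the fewest counts.

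To define how the depots differed, every RefSeq transcript that exceeded 1 CPM in 3 or more of these 8 libraries was tested, with each mouse fitted as its own block. An entry was called when its adjusted p was below 0.05 and its log2 fold change of VAT over SAT lay beyond 1.5 in either direction. Levels of single genes below are CPM scaled with TMM factors, which adjust for the few very abundant genes. Differences are log2 VAT over SAT ± SE. Summed levels of marker lists are in CPM as deposited, unless said otherwise. Of 11694 entries tested, 767 (6.56%) were called higher in VAT and 401 (3.43%) higher in SAT. Without the limit on size, 2075 (17.7%) were higher in VAT and 1872 (16%) in SAT. Without mouse 4 these were 1341 and 1173. The 4 VAT libraries all lay above the 4 SAT libraries for 689 of the 767 entries, and the reverse held for 355 of the 401. Over all entries tested these shares were 16.3% and 15.6%. Of the 767, 431 exceeded 1 CPM in no SAT library, and of the 401, 129 exceeded it in no VAT library. Such entries reached the test through the depot where they are high, so counts of called members below are no support by themselves, and their number is given for several lists. The median log2 difference of all entries was 0.02. With library totals in place of TMM factors it was 0.37, and 1152 entries were called higher in VAT and 213 in SAT. Differences are therefore read against the median entry. Where a gene has several transcripts, the one with the highest mean level stands for it. Reads that fit more than 1 transcript may not have been counted, so the level of a gene with many transcripts may not be that of the whole gene.

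**Figure D1:**
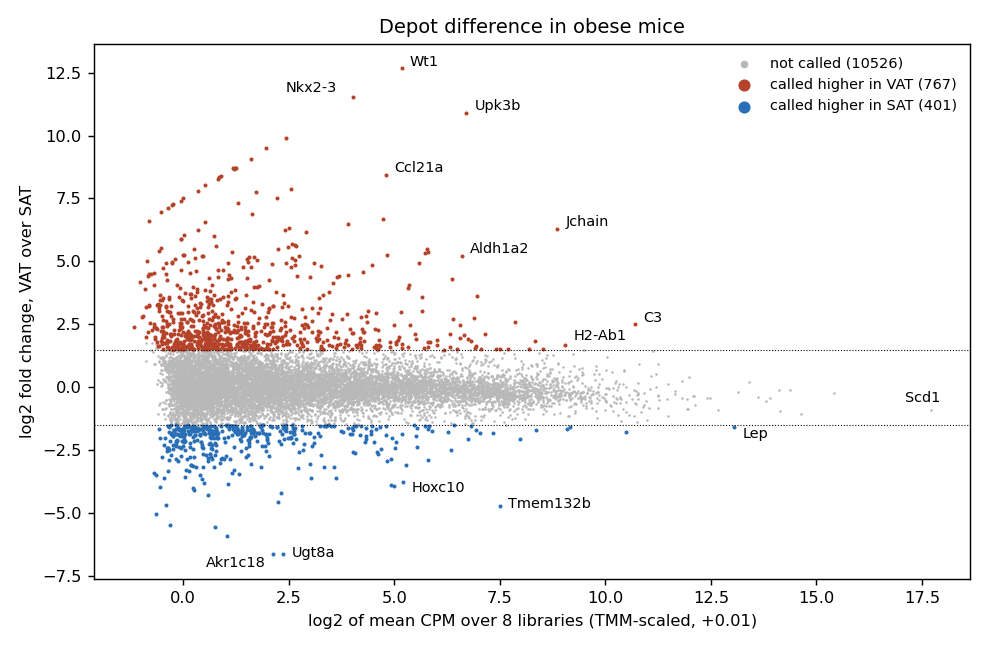
Log2 fold change of VAT over SAT in obese mice (vertical axis) against the log2 of the mean CPM over the 8 libraries (horizontal axis), 1 point per entry tested. Red points are the 767 entries called higher in VAT, blue points the 401 called higher in SAT, and dotted lines mark 1.5. The largest fitted differences reached 12.67 toward VAT (Wt1, whose fitted value depends on how 0 counts in SAT are handled) and -6.63 toward SAT (Ugt8a), and Scd1 lies farthest to the right at -0.90.

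Transcription factors of body position differed in both directions, and 4 of those tested had no counts in SAT. Among 43 factors tested of 86 listed, 7 were called higher in VAT and 9 higher in SAT, and 6 and 5 of these exceeded 1 CPM in no library of the other depot. The list's median was -0.06, near that of all entries, since its members went both ways. Wt1 (chr2:104956625-105003961, GRCm39), a zinc finger factor of the mesothelium and of its stromal descendants, had 0 counts in all 4 SAT libraries. In VAT of mice 1 to 4 it was at 62.5, 72.2, 69.8 and 83.7 CPM, at least 1242-fold higher in the mean when 3 counts over the SAT group are taken as its limit (adjusted p = 5.5e-15). Nkx2-3 (chr19:43600764-43604331), a homeobox factor of gut mesoderm and spleen, was likewise without counts in SAT and stood at 35.4, 28.8, 35.4 and 30.9 CPM in VAT, at least 562-fold higher by the same limit (adjusted p = 1.8e-13). No VAT value of either gene came near the SAT libraries.

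Tcf21, a factor of visceral mesenchyme, and Gata5 also had no counts in SAT and reached 7.78 ± 2.40 and 2.52 ± 1.26 CPM in VAT. Isl1 was at 0.127 ± 0.176 CPM in SAT and 11.2 ± 2.65 in VAT (6.33 ± 0.42, adjusted p = 1.2e-10, or 7.38 without mouse 4). The forkhead factors Foxf1 (4.85 ± 0.30) and Foxf2 (2.26 ± 0.38), which act in the mesenchyme of the gut, completed the group that was higher in VAT.

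Of the factors higher in SAT, Hoxc10 (chr15:102875134-102880330), a Hox gene of the hind part of the body, was at 81.3, 75.5, 52.99 and 67.1 CPM in SAT and 1.88, 4.22, 7.21 and 5.11 in VAT (-3.77 ± 0.23, adjusted p = 2.6e-11). It was detected in every VAT library, yet every SAT library was far higher. Tbx18 was at 22.8 ± 4.95 CPM in SAT and 1.88 ± 0.746 in VAT, and Twist1 at 54.05 ± 5.70 and 10.7 ± 2.95. The homeobox genes Emx2 (-5.56 ± 0.61), En1 (-5.45 ± 0.87) and Irx5 (-4.00 ± 0.66) were near 0 in VAT and between 1.55 and 3.31 CPM on average in SAT. Hoxc9 (-3.03 ± 0.38) and Hoxa10 (-2.85 ± 0.49) were also called. Counts in VAT were few, and leaving out mouse 3 moved En1 to -7.34, Irx5 to -4.85 and Hoxa10 to -3.81. Leaving out mouse 4, whose SAT value of Irx5 was the highest, moved Irx5 to -3.07.

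The Hox genes as a whole were not a SAT group. Of 23 tested, 3 were called higher in SAT and none higher in VAT, and at any size 5 were higher in SAT and 4 in VAT. Hoxa5 was at 7.68 ± 0.942 CPM in SAT and 14.1 ± 2.70 in VAT (0.86 ± 0.19, adjusted p = 0.0013), whereas Hoxb9 was at 8.42 and 5.22 (-0.75 ± 0.22, adjusted p = 0.013), a difference that missed the threshold without mouse 2 (adjusted p = 0.0703), without mouse 3 (0.0885) and without the mouse as a block (0.0555). The called members Hoxc9, Hoxc10 and Hoxa10 lie toward the hind end of their clusters.

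Promoters of 10 of these 16 called factors were found in the RefSeq table of build GRCm38.p6, which spans 250 bases before to 50 after each start. One factor that was higher in each depot is shown, and CG pairs, the sites of DNA methylation, are in capitals. Nkx2-3 (chr19:43612075-43612374, plus strand) and Tbx18 (chr9:87731211-87731510, minus strand) hold 15 CG pairs each. The 11 promoters of the 10 factors hold between 8 and 37, with a median of 23, and the median over all 32851 promoters of the table is 7.
Nkx2-3: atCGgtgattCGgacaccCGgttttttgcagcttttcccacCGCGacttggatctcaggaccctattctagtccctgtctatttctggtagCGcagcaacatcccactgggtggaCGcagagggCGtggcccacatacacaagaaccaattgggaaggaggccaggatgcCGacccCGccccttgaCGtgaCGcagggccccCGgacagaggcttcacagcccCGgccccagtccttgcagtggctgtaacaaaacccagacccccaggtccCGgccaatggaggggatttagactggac
Tbx18: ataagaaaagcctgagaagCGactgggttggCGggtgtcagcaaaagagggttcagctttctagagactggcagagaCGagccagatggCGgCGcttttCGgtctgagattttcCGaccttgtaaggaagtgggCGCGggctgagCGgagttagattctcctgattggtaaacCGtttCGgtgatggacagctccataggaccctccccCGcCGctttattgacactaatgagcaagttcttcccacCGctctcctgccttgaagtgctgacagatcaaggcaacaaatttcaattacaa

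Mesothelial genes were higher in VAT. Of 13 tested markers of 17 listed, 10 were called higher in VAT and none higher in SAT. All 10 exceeded 1 CPM in no SAT library and so were tested through their VAT level alone, and the levels themselves are the result. Upk3b (chr5:136067350-136075342), a uroplakin of the mesothelial surface, was at 208, 194, 196 and 232 CPM in VAT and at 0, 0.203, 0.199 and 0 in SAT (10.91 ± 0.28, adjusted p = 2.0e-17). It had the smallest adjusted p of all entries. Mesothelin (Msln) and Upk1b had no counts in SAT and were at 4.66 ± 1.79 and 6.01 ± 1.37 CPM in VAT. The keratins of simple epithelia Krt8 (7.88 ± 0.48), Krt18 (5.70 ± 0.34) and Krt19 (5.62 ± 0.38) moved with them, as did the mesothelial membrane proteins Lrrn4 (6.25 ± 0.43) and Gpm6a (7.75 ± 0.55). With few SAT counts, these values moved by over 1.5 times, all upward, for Upk3b (11.66 without mouse 3), Krt8 (10.11 without mouse 3), Krt19 (6.43 without mouse 2), Lrrn4 (7.31 without mouse 1) and Gpm6a (9.13 without mouse 4). Of the 3 members not called, Bcam was at 0.77 ± 0.13, Cldn15 at -0.86 ± 0.12 and Igfbp5 at -0.96 ± 0.12. Igfbp5 is made by other stromal cells too and held 88.3% of the list's summed CPM, as deposited, in SAT. That sum overlapped between the depots as deposited. Its mean log2 difference was -0.12, or -0.47 with TMM factors. In bulk tissue, fewer cells of a type and less RNA per cell cannot be told apart.

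**Figure D2:**
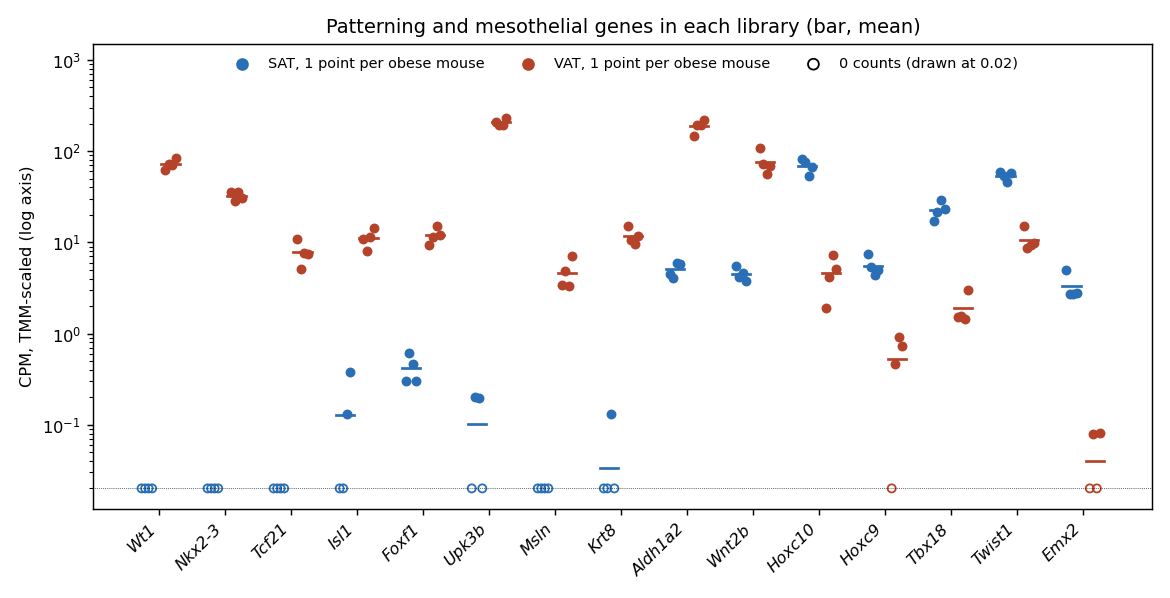
TMM-scaled CPM (log axis) of 15 patterning, mesothelial and signalling genes in each library of the obese mice, SAT in blue and VAT in red, with the mean as a bar. Open points, drawn at 0.02, are libraries with 0 counts. Wt1, Nkx2-3, Tcf21 and Msln have 0 counts in all 4 SAT libraries, and for none of the 15 genes do the depots overlap.

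Other epithelial genes moved in the same direction. Krt7 was at 0.205 ± 0.117 CPM in SAT and 14.8 ± 2.63 in VAT, Epcam at 0.143 and 2.33, and Perp, a junction protein, at 0.394 and 6.30. Lrp2, the endocytic receptor megalin, was at 0.313 ± 0.147 CPM in SAT and 29.4 ± 6.59 in VAT (6.50 ± 0.28, adjusted p = 6.1e-14). Of the 18 listed genes of mammary and glandular epithelium, 14 did not pass the filter, and Krt7, Krt8, Krt18 and Epcam passed it through VAT alone. Of the intestinal list, 6 of 25 genes were tested. Lyz1, a lysozyme of Paneth cells whose sequence is close to that of the macrophage gene Lyz2, so that reads may be split between them, was called higher in VAT (29.4 ± 7.04 and 159.9 ± 10.1 CPM), as was Epcam, and Krt20 and Lgr5 were called higher in SAT at mean levels below 2 CPM. The depots overlapped for Lgr5, and Krt20 had an adjusted p of 0.0629 by DESeq2, 0.0547 with library totals and 0.0525 with all 16 libraries. The list's summed level was between 27.9 and 46.6 CPM in SAT and between 167 and 238 in VAT, 88.5% of it Lyz1 in VAT, while Cdx2, Reg3b, Tff3, Olfm4 and Defa24 were listed at 0 in every library of the obese mice. A listed 0 does not show that a gene is silent, since Plin4 of adipocytes and Pecam1 of endothelium were also listed at 0 in all 8 libraries. Of 20 genes of the exocrine pancreas, which adjoins the mesentery, Cela1 alone passed the filter, with 181 ± 22.4 CPM in SAT and 82.8 ± 5.10 in VAT, and Prss1, Cpb1 and Clps were at 0 in the obese mice.

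Genes of developmental signals differed too. Aldh1a2 (chr9:71122630-71203527), the enzyme that makes retinoic acid, was at 4.55, 4.07, 5.96 and 5.84 CPM in SAT and 147, 195, 195 and 219.7 in VAT (5.20 ± 0.15, adjusted p = 1.4e-16), with no overlap between depots. Of 17 tested retinoid genes 4 were called higher in VAT and none in SAT. Among the others were Dhrs9, a retinol dehydrogenase (2.15 ± 0.21), and Cyp26b1, which degrades retinoic acid (1.59 ± 0.28). Rbp7 (-0.86 ± 0.19), Adh1 (-0.41 ± 0.12) and Retsat (-0.63 ± 0.11), a retinol saturase, were higher in SAT short of 1.5, of which Adh1 missed the threshold without mouse 1 (adjusted p = 0.105) or mouse 2 (0.0988). The list's median was -0.01.

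Wnt genes split between the depots. Of 13 tested, 4 were called higher in VAT and 2 higher in SAT. Wnt2b was at 4.50 ± 0.73 CPM in SAT and 76.8 ± 22.9 in VAT (4.05 ± 0.17, adjusted p = 4.3e-14). Wnt4 and the Wnt agonist Rspo1 were at or near 0 in SAT and at 6.09 ± 2.46 and 9.28 ± 5.15 CPM in VAT, and Rspo3 was at 2.19 ± 0.634 in SAT and 11.9 ± 0.942 in VAT. Wnt2, by contrast, was at 1.23 ± 0.362 CPM in SAT and 0.0195 ± 0.0391 in VAT (-5.04 ± 0.90), or -7.05 without mouse 2, and Lgr5, a receptor for R-spondins, at -2.42 ± 0.59. The called Wnt ligands therefore did not share a direction, and for Lgr5, the only receptor named, the depots overlapped. Of the 4 called higher in VAT 2, and both called higher in SAT, exceeded 1 CPM in no library of the other depot.

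Among 34 tested TGF-beta, BMP, FGF and related genes, 7 were called higher in VAT and 3 in SAT. Grem1, a BMP antagonist, and Igfbp2 had no counts in SAT and were at 3.70 ± 1.64 and 1.98 ± 0.985 CPM in VAT. Fgf1 was higher in VAT as well (7.31 ± 0.62), for the most abundant of its 14 transcripts. Gdf6 (2.19 ± 0.37), Igfbp6 (1.96 ± 0.17), Fgf16 (1.84 ± 0.54) and Gdf10 (1.59 ± 0.13) followed at smaller differences. Higher in SAT were Bmp3 (-1.76 ± 0.43), Igf1 (-1.68 ± 0.42) and the metabolic hormone Fgf21 (-1.57 ± 0.45). Igf1 is given by 1 of its 19 transcripts, at means of 2.7 CPM in SAT and 0.73 in VAT. Leaving out 1 mouse ended the call of Fgf16 (adjusted p = 0.0605 without mouse 2 and 0.1 without mouse 3) and of Fgf21 (0.0831 without mouse 2 and 0.0886 without mouse 4), and Fgf16 was at 2.69 without mouse 4 and Fgf1 at 8.75 without mouse 3. Fgf10, which promotes the growth of adipocyte precursors, was at 278 ± 44.9 CPM in SAT and 108 ± 14.2 in VAT (-1.36 ± 0.13, adjusted p = 5.4e-08), short of the limit on size.

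Matrix genes went both ways, with 4 of 36 called higher in VAT and 3 in SAT. Fibromodulin (Fmod), a small proteoglycan that shapes collagen fibrils, was at 8.51, 7.22, 9.34 and 6.88 CPM in SAT and 144, 152, 144 and 186 in VAT (4.29 ± 0.16, adjusted p = 5.5e-15), and the values of each depot lay close together. Fibulin-1 (Fbln1) was at 5.05 ± 1.45 and 75.7 ± 8.99 CPM. Prelp, a proteoglycan of basement membranes, was instead higher in SAT (490.3 ± 41.3 and 166 ± 74.1 CPM), as were the protease Mmp3 (-1.76 ± 0.14) and lysyl oxidase (Lox, -2.23 ± 0.33), which crosslinks collagen. Dcn (0.89 ± 0.12) and Ogn (1.29 ± 0.12), proteoglycans of fibroblasts, were higher in VAT without reaching 1.5. Glypican-3 (Gpc3), a cell surface proteoglycan, was at 18.9 ± 5.78 CPM in SAT and 228 ± 31.2 in VAT (3.62 ± 0.15, adjusted p = 2.6e-14). Fap, a protease of activated fibroblasts, was higher in SAT (-1.63 ± 0.13) and Clec11a, a stromal growth factor, in VAT (2.65 ± 0.23). Of 17 tested progenitor markers 1 was called higher in VAT and 2 in SAT.

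B cell genes were low in SAT and well detected in VAT. Of 7 tested B cell genes 5 were called higher in VAT, namely Ms4a1 (CD20), Cd79a, Pax5, Blk and Cd79b. Ms4a1 (chr19:11227039-11243605) was at 1.72, 1.83, 3.44 and 2.17 CPM in SAT and 88.1, 109.9, 83.3 and 147 in VAT (5.50 ± 0.21, adjusted p = 1.3e-14), and every VAT library was far above every SAT library. Cd79a, a chain of the B cell receptor, was at 2.48 ± 0.69 and 108 ± 25.1 CPM, Pax5, which fixes B cell identity, at 2.90 ± 1.25 and 93.4 ± 27.99, and Pou2af1, a coactivator of octamer-binding factors in B cells, at 2.41 ± 0.993 and 103 ± 49.9. The summed level of the 14 B cell genes in the table was between 9.77 and 15.8 CPM, as deposited, in SAT and between 273 and 564 in VAT, higher in VAT in 4 of 4 mice (exact sign-flip permutation p = 0.125).

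Plasma cell genes were also higher in VAT, with 4 of 6 called. Jchain (chr5:88667668-88675750), which joins secreted IgA and IgM, was at 40.4, 3.97, 3.11 and 15.3 CPM in SAT and 1552, 748, 453 and 906 in VAT (6.30 ± 0.26, adjusted p = 5.4e-14). Mouse 1 was the highest in both depots, and the depots did not overlap. Mzb1, a chaperone of antibody secretion, was at 0.492 ± 0.513 and 52.4 ± 41.4 CPM. The VAT library of mouse 1 was the highest for Mzb1, Txndc5 and Sdc1, of which Sdc1 had an adjusted p of 0.0722 by DESeq2 and 0.0617 without the mouse as a block. Txndc5 was called at 1.63 ± 0.26 with that mouse and was at 1.19 without it (adjusted p = 0.00165), below the limit on size. Of 12 tested genes of T and natural killer cells, 9 were called higher in VAT, among them Cd3g (5.34 ± 2.62 and 25.5 ± 7.78 CPM), Gzmk (2.25 ± 0.34) and the checkpoint receptor Pdcd1 (3.37 ± 0.35). Gzma (-0.86 ± 0.28) and Gzmb (-0.47 ± 0.32), proteases of cytotoxic cells, were lower in VAT in mean, of which Gzma passed the test (adjusted p = 0.022) but not with DESeq2 (0.0561) or without mouse 3 (0.0767) or mouse 4 (0.123).

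Chemokines that gather lymphocytes accompanied them. Of 32 chemokine genes tested 12 were called higher in VAT and none higher in SAT. Ccl21a (chr4:42772859-42773995), made by lymphatic vessels and lymph node stroma, was at 0.224, 0, 0.199 and 0.15 CPM in SAT and 52.7, 38.9, 74.7 and 56.4 in VAT (8.45 ± 0.28, adjusted p = 9.4e-16). Cxcl13, the B cell attractant, was at 6.47 ± 1.48 and 93.97 ± 62.6 CPM, and its receptor Cxcr5 at 1.45 ± 0.521 and 37.1 ± 12.99. Ccl19 and its receptor Ccr7 were near 0 in SAT and at 2.90 ± 2.46 and 4.37 ± 1.61 CPM in VAT. Tnfsf11 (RANKL), a TNF family ligand of lymphoid tissue, was at 0.157 ± 0.0598 and 4.01 ± 4.37 CPM. The monocyte attractant Ccl2 was at 23.4 ± 6.38 CPM in SAT and 25.6 ± 6.24 in VAT (0.15 ± 0.17, adjusted p = 0.55, or 0.50 and 0.0367 with library totals), and the most abundant of the 3 transcripts of Cxcl12 was lower in VAT (-0.63 ± 0.12), whereas with counts summed over them the difference was -0.10 (adjusted p = 0.53).

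Lymphatic endothelial genes were higher in VAT, with 4 of 7 called, 3 of them without a SAT library above 1 CPM. Besides Ccl21a these were Mmrn1 (0.163 ± 0.125 and 5.47 ± 1.28 CPM), Foxc2 (3.85 ± 0.56, or 5.07 without mouse 4) and Pdpn (1.79 ± 0.17), and Prox1 and Reln were listed at 0 in every library of the obese mice. Blood endothelial genes were not, with 1 of 15 called (Egfl7, whose depots overlap and whose adjusted p was 0.0868 without mouse 3 and 0.189 without mouse 4). Tie1 was at -0.09 ± 0.14 and Cldn5 at -1.13 ± 0.15. B cell genes, Ccl21a and Cxcl13 are found in lymph nodes as well as in the lymphoid clusters of visceral fat, and the part of either in these differences was not tested.

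**Figure D3:**
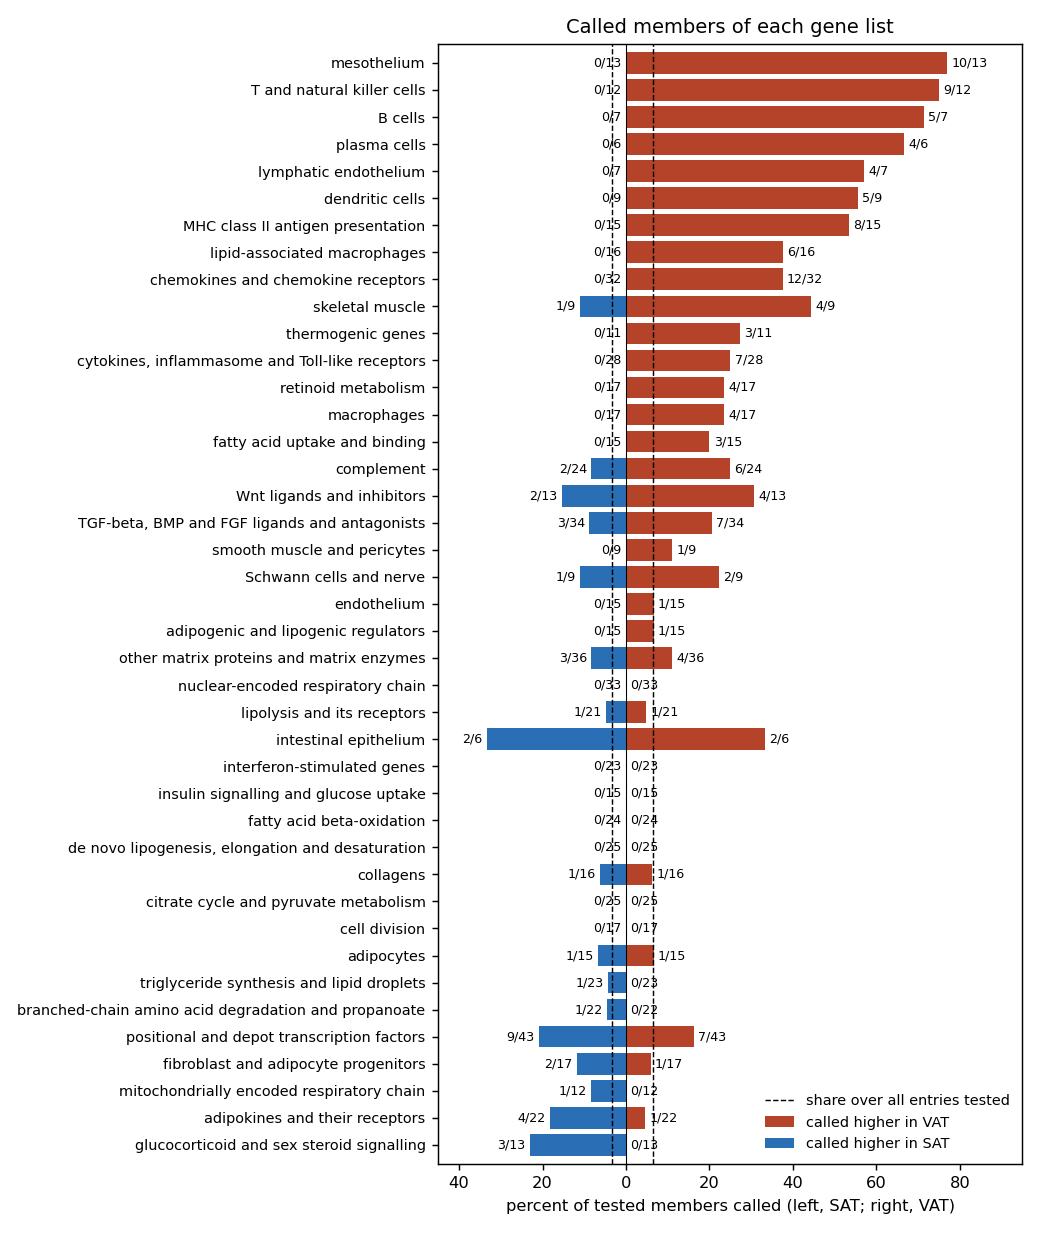
Percent of the tested members of each gene list called higher in VAT (right, red) or higher in SAT (left, blue), with counts beside the bars, for the lists with at least 5 members tested. Dashed lines give the shares over all entries tested, 6.56% and 3.43%. Mesothelium (10 of 13), T and natural killer cells (9 of 12) and B cells (5 of 7) have the longest bars toward VAT, of which 10, 3 and 1 members exceeded 1 CPM in no SAT library, and no member of 5 metabolic lists is called in either direction.

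Antigen presentation genes were higher in VAT. Of 15 tested genes of MHC class II presentation 8 were called higher in VAT (5 of them without a SAT library above 1 CPM) and none in SAT, with a median of 1.53. H2-Ab1 (chr17:34476663-34488393), the beta chain of I-A, was at 274, 232, 259 and 224 CPM in SAT and 914, 709, 740.1 and 859.6 in VAT (1.70 ± 0.12, adjusted p = 1.6e-10), again without overlap. The invariant chain Cd74 was at 1.53 ± 0.13. H2-Eb1 (1.47 ± 0.12) and H2-Aa (1.22 ± 0.13) were higher in VAT short of 1.5. Members found mainly in B cells and thymus differed more, with H2-Ob at 0.592 ± 0.0884 and 8.57 ± 3.27 CPM, H2-Oa at 0.282 and 4.39, and H2-Eb2 at 0.244 and 12.2. Ciita, the transactivator of these genes, was at 0.15 and 1.83 CPM for 1 of its 9 transcripts. H2-DMa was lower in VAT (-0.76 ± 0.27), again for 1 of several transcripts, and missed the threshold without mouse 1 (adjusted p = 0.136), mouse 3 (0.0961) or mouse 4 (0.0697). B cell and macrophage markers moved with these genes, and their part was not tested.

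Class II promoters share a Y box, an inverted CCAAT element bound by NF-Y. The core GATTGG, searched on both strands, occurred in 8 of the 12 promoters that the RefSeq table (GRCm38.p6) holds for 11 of the listed class II genes, and in 16.1% of all 32851 promoters of the same length. A match is a description of these letters and not a shown site. The abundant pair H2-Aa (chr17:34287774-34288073, minus strand) and H2-Eb1 (chr17:34305617-34305916, plus strand) is given with the B cell pair H2-Oa (chr17:34092129-34092428, plus strand) and H2-Ob (chr17:34238655-34238954, plus strand), with each match in capitals. The match begins 49 bases before the start in H2-Aa, 60 and 35 bases before it in H2-Eb1, 44 in H2-Oa and 58 in H2-Ob.
H2-Aa: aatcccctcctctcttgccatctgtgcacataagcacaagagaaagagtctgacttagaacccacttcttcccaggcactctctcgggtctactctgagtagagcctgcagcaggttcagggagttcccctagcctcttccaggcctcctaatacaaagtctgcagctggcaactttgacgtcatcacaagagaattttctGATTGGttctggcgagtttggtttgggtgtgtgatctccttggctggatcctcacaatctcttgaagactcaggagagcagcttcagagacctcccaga
H2-Eb1: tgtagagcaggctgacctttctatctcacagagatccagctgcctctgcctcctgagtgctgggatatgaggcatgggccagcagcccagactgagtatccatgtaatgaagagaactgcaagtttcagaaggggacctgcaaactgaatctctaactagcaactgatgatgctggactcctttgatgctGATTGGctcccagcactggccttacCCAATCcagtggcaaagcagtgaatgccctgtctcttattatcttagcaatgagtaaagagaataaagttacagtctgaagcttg
H2-Oa: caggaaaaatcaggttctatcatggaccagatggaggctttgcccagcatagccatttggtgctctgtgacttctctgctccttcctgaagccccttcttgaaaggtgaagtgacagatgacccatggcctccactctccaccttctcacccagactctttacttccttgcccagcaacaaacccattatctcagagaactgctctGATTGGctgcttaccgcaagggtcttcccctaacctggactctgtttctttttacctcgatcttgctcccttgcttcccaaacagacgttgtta
H2-Ob: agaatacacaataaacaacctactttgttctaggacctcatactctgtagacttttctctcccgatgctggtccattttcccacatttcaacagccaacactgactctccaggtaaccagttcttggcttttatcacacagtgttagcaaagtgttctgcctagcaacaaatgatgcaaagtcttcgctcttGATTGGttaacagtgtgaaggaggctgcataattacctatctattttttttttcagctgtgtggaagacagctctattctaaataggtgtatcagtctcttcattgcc

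Most macrophage genes were higher in VAT, by smaller factors. Of 17 tested 4 were called (Timd4, Itgam, Msr1 and C1qa), and at any size 15 were higher in VAT and none in SAT. Lyz2 was at 1198 ± 207 CPM in SAT and 3297 ± 736 in VAT (1.45 ± 0.14, adjusted p = 3.7e-08), Cd68 at 1.14 ± 0.17 and the mannose receptor Mrc1 at 0.50 ± 0.12. The summed level of the 19 genes, in CPM as deposited, was between 2229 and 3096 in SAT and between 6086 and 9498 in VAT. It was higher in VAT in 4 of 4 mice, by a mean log2 difference of 1.52, or 1.17 with TMM factors.

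Of 16 tested genes of lipid-associated macrophages, the cells that take up lipid from dying adipocytes, 6 were called higher in VAT. Gpnmb (chr6:49013426-49047863), a lysosomal membrane protein, was at 44.4, 40.9, 75.4 and 50.1 CPM in SAT and 224, 233, 190.2 and 1009.7 in VAT (2.61 ± 0.28, adjusted p = 2.1e-07). Mouse 4 was far above the others in VAT, and the VAT values of the other mice still lay above every SAT value. Trem2 (2.16 ± 0.38), Itgax (1.53 ± 0.19) and Mmp12 (2.90 ± 0.60, or 3.61 without mouse 3) were called too. Lpl, which the list also holds, is made mainly by adipocytes and was lower in VAT (-1.05 ± 0.13). It held 98.0% of the list's summed CPM in SAT and 93.2% in VAT, so that sum was lower in VAT.

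Complement and cytokine genes went mostly the same way, with 6 of 24 and 7 of 28 called higher in VAT. C3 (chr17:57510964-57535155), the central complement component, was at 576, 429, 474 and 511 CPM in SAT and 3160.1, 2797, 2459.6 and 2833 in VAT (2.50 ± 0.12, adjusted p = 3.3e-13), the most abundant entry called higher in VAT. C7 (2.46 ± 0.16) and clusterin (Clu, 2.32 ± 0.19) followed it, whereas C6 was higher in SAT (-2.37 ± 0.15). The cytokine Il1a (2.85 ± 0.49) and prostaglandin synthase 2 (Ptgs2, 1.89 ± 0.28) were called higher in VAT. Mouse 4 was the highest for Il1a, which was at 2.23 without it. The adipocyte acute phase genes Hp (-1.35 ± 0.14) and Lbp (-1.20 ± 0.11) were lower in VAT at an adjusted p of 1.2e-07 and 2.6e-08. Other abundant entries called higher in VAT were Laptm5, a lysosomal protein of leukocytes (1.52 ± 0.15), and Thbd, the anticoagulant receptor thrombomodulin (1.83 ± 0.11).

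Many adipocyte genes were lower in VAT, by modest factors. Of 15 tested adipocyte markers, 1 was called in each direction, and at any size 9 were higher in SAT and 1 in VAT, with a median of -0.77. Their summed level, in CPM as deposited, was between 46989 and 59456 CPM in SAT and between 33593 and 49168 in VAT. Leptin (Lep, chr6:29060216-29073877) was at 12914, 11870.0, 12302 and 13463 CPM in SAT and 4695, 5284, 3772 and 3275 in VAT (-1.59 ± 0.14, adjusted p = 6.3e-09), so every SAT library was above every VAT library. Adipoq differed less (-0.35 ± 0.12, adjusted p = 0.034), and its sign turned with library totals in place of TMM factors (0.002). It missed the threshold without the mouse as a block (adjusted p = 0.141) and without mouse 1 (0.238), mouse 2 (0.0672) or mouse 4 (0.149).

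Of 22 tested adipokines and receptors, 4 were called higher in SAT and 1 in VAT. Those higher in SAT included leptin, apelin (Apln, 70.01 ± 12.6 and 22.2 ± 5.45 CPM) and Fgf21. The apelin receptor Aplnr was at -1.47 ± 0.13. Angiotensinogen (Agt), the precursor of angiotensin, was higher in VAT at low level (0.164 ± 0.155 and 2.31 ± 0.632 CPM, 3.79 ± 0.58).

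Several lipogenic genes were lower in VAT, none by enough to be called. Of 25 tested genes of fatty acid synthesis, elongation and desaturation, none passed the limit on size in either direction, and at any size 11 were higher in SAT and 2 in VAT. Scd1 (chr19:44382894-44399154) was at 284239, 261445, 265905 and 295006 CPM in SAT and 155755, 167854, 170930.5 and 107482 in VAT (-0.90 ± 0.15, adjusted p = 6.6e-05). Scd2 was at -0.85 ± 0.12, malic enzyme (Me1), a source of NADPH, at -1.41 ± 0.14 and Elovl6 at -0.53 ± 0.11. Fatty acid synthase (Fasn) was at -0.25 ± 0.14 (adjusted p = 0.18). Thrsp, a regulator of lipogenesis, ran against the list at 343 ± 63.7 CPM in SAT and 854 ± 72.1 in VAT (1.33 ± 0.12).

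Storage and uptake genes showed the same pattern. Of 23 genes of triglyceride synthesis and lipid droplets, 9 were higher in SAT at any size and 3 in VAT, and Hilpda, a droplet protein that inhibits lipolysis, was the 1 called (43.8 ± 15.8 and 11.7 ± 6.22 CPM). Dgat2 (-0.47 ± 0.12), Gpd1 (-0.67 ± 0.12) and perilipin 1 (Plin1, -0.85 ± 0.13) were higher in SAT, Dgat2 with an adjusted p of 0.0558 without mouse 2 and 0.0769 without the mouse as a block, and Pck1, the enzyme of glyceroneogenesis, in VAT (0.95 ± 0.11, adjusted p = 8.7e-07). Of 15 genes of fatty acid uptake 8 were higher in SAT, among them Lpl (34282 ± 1319 and 16667 ± 2107 CPM), Fabp4 (-0.92 ± 0.14), Cd36 (-1.02 ± 0.15) and Acsl1 (-1.49 ± 0.11). Cd36 and Acsl1 are each given by 1 transcript, of 12 and 8. The 3 called higher in VAT, Slc27a6, Fabp3 and Acot1, had means below 5 CPM in both depots.

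Receptors that control lipolysis differed in direction. The beta-3 adrenergic receptor Adrb3 (chr8:27715443-27740925) was at 37.9, 21.9, 27.2 and 18.3 CPM in SAT and 77.9, 86.8, 108 and 80.01 in VAT (1.80 ± 0.16, adjusted p = 1.2e-08), and Adrb1 (0.88 ± 0.22) was also higher in VAT. Hcar2, the antilipolytic receptor for hydroxybutyrate and niacin, was lower in VAT (-1.27 ± 0.13), as was hormone-sensitive lipase (Lipe, -0.92 ± 0.15 for 1 of 6 transcripts). Mgll, which cleaves the last fatty acid from glycerol, was called higher in SAT at low level (1.42 ± 0.258 and 0.34 ± 0.325 CPM). This is 1 of its 4 transcripts, with an adjusted p of 0.0781 without mouse 4. At any size 3 members of this list of 21 were higher in VAT and 11 in SAT.

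Many genes of mitochondrial fuel oxidation were lower in VAT, mostly by still smaller factors. Of 25 tested genes of the citrate cycle 15 were higher in SAT at any size and none in VAT, of 24 genes of fatty acid oxidation 11 and none, and of 22 genes of branched-chain amino acid breakdown 12 and 1. The medians were -0.41, -0.36 and -0.42, or -0.059, -0.006 and -0.071 with library totals in place of TMM factors. Dlat of pyruvate dehydrogenase (-0.97 ± 0.11), Acadl (-0.52 ± 0.12) and Bcat1, a cytosolic aminotransferase (-1.80 ± 0.24, called), are examples. Respiratory chain genes of the nucleus were at a median of -0.19 with 6 of 33 higher in SAT and 1 in VAT, a share near the 16% of all entries higher in SAT at any size, and those of mitochondrial DNA at -0.38 with 6 of 12 higher in SAT. Of insulin signalling genes 7 of 15 were higher in SAT, among them Irs2 (-0.53 ± 0.13) and Hk2 (-0.98 ± 0.17). With library totals in place of TMM factors the medians of the nuclear respiratory chain, triglyceride, insulin and adipokine lists turned positive (0.16, 0.05, 0.05 and 0.07) and stayed below the 0.37 of all entries. The adipocyte markers moved with all these lists, and their part in the metabolic differences was not tested.

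**Figure D4:**
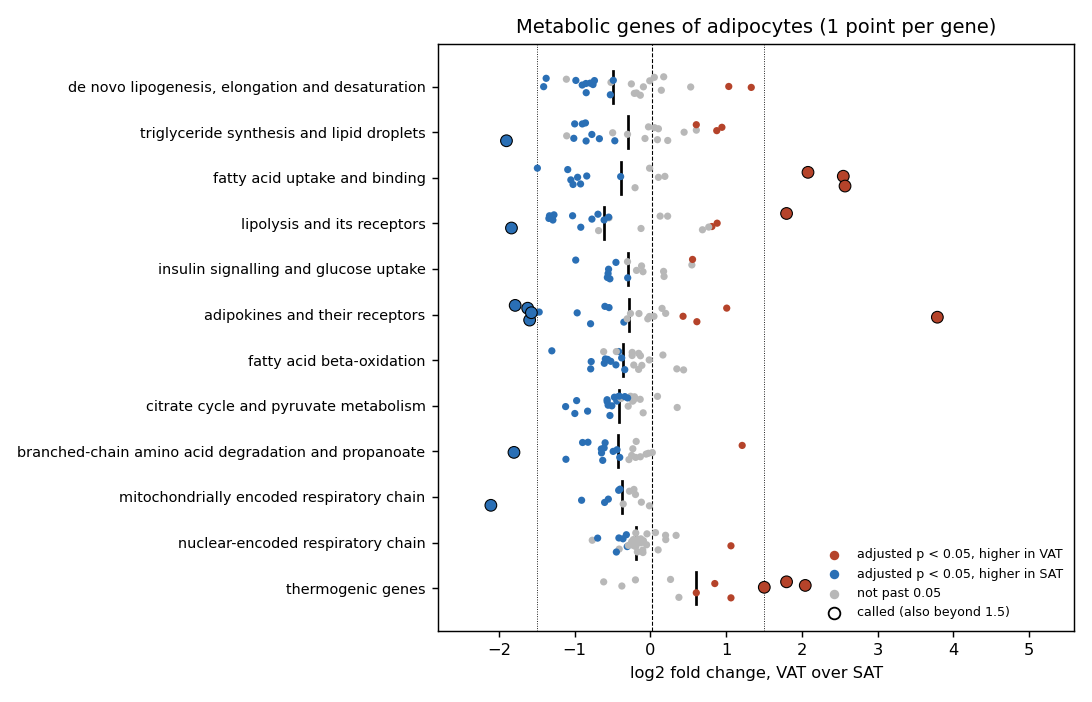
Log2 fold change of VAT over SAT for the tested members of 12 metabolic lists, 1 point per gene, blue where higher in SAT and red where higher in VAT at an adjusted p below 0.05, with black outlines for called genes. Black bars are list medians, the dashed line is the median of all entries (0.02), and dotted lines mark 1.5. Of the 12 medians only that of the thermogenic genes, 0.61, lies above the dashed line, and with library totals 4 others turn positive while that line rises to 0.37.

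The thermogenic genes that differed were higher in VAT. Of 11 tested 3 were called and 6 passed at any size, with none higher in SAT. Ucp1 (chr8:84016647-84025085), the uncoupling protein of brown and beige fat, was at 1.57, 1.63, 4.97 and 1.72 CPM in SAT and 9.41, 9.22, 14.7 and 6.16 in VAT (2.05 ± 0.25, adjusted p = 1.7e-06). The depots did not overlap, and no library exceeded 14.7 CPM. The others called were Adrb3, which white adipocytes also use, and 1 transcript of Kng2, whose depots overlapped and whose adjusted p was between 0.0503 and 0.143 with DESeq2, no filter on low counts, edgeR's own filter, counts summed per symbol or all 16 libraries.

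Genes called higher in SAT included several with no place in the lists. Tmem132b (chr5:125608838-125869647), which encodes a transmembrane protein, was at 305, 323, 334 and 430.5 CPM in SAT and 18.1, 16.4, 15.1 and 7.21 in VAT (-4.70 ± 0.21, adjusted p = 1.8e-13). Plppr4, a phospholipid phosphatase-related protein, was at 56.5 ± 8.13 and 4.03 ± 0.555 CPM. Ugt8a, which makes galactosylceramide, was at 10.2 ± 6.39 CPM in SAT and 0.0854 ± 0.0748 in VAT, and Akr1c18, which inactivates progesterone, at 8.64 ± 3.60 and 0.137 ± 0.165. The oxytocin receptor Oxtr (-3.17 ± 0.22), the lipocalin Apod (-3.18 ± 0.27) and Shisa2 (-3.58 ± 0.29) were also called. Of the aldehyde oxidase Aox1, 1 transcript was called (-2.66 ± 0.17) and the more abundant one was at -1.04 ± 0.12, short of the limit. Neurocan (Ncan) was at 174 ± 51.97 and 42.5 ± 13.5 CPM, and the receptor Ret at 54.2 ± 6.72 and 11.9 ± 0.815. B3galt2, a galactosyltransferase, and the membrane receptor Paqr9 were among the most abundant, at 848 ± 192 and 819.6 ± 132 CPM in SAT.

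Of steroid genes, 3 of 13 were called higher in SAT and none in VAT. Besides Akr1c18 these were Hsd17b7 (3.18 ± 0.944 and 0.693 ± 0.732 CPM) and Hsd11b1, which regenerates active glucocorticoid (-1.66 ± 0.52), each by 1 of 4 transcripts at a few CPM. Hsd11b1 lost its call without mouse 3 (adjusted p = 0.0735) or mouse 4 (0.0795), and with all its transcripts summed (0.0615).

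Of 9 tested smooth muscle and pericyte genes 1 was called higher in VAT and none in SAT, and the list's summed level was between 2272 and 2688 CPM in SAT and between 2006 and 2141 in VAT, lower in VAT in 4 of 4 mice. The gene called, Actg2, the actin of visceral smooth muscle, was at 0.821, 0.508, 0.729 and 0.673 CPM in SAT and 81.3, 2.50, 3.65 and 13.4 in VAT (4.43 ± 0.48, adjusted p = 2.3e-07), with mouse 1 far above the rest. Without mouse 1 the difference was 3.14, and without mouse 3 it was 5.16. Of skeletal muscle genes 9 of 26 were tested. Casq1 was called higher in SAT (32.2 ± 8.58 and 7.96 ± 2.72 CPM), and Mybpc2, Actn3, Atp2a1 and Hspb7 higher in VAT. Atp2a1 lost its call without mouse 1 (adjusted p = 0.0551) or mouse 4 (0.183), with DESeq2 (0.0889) and with no filter on low counts (0.0698). The defining genes Myh7, Tnnt3, Ttn and Ryr1 were listed at 0 in every library of the obese mice, as were Plin4 and Pecam1, and the list's summed level was between 49.5 and 78.8 CPM in SAT and between 108 and 177 in VAT, of which Hspb7 held 58.0% in VAT.

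Finally, the depot difference of obese mice was set beside that of lean mice. The lean mice share no library with the obese ones. Over 13288 entries tested in all 16 libraries, the difference itself changed with obesity for 288 (2.17%), as edgeR's test of obese minus lean found. That count was 128 without the mouse as a block, 134 without obese mouse 4, and 185 and 152 without lean mice 2 and 3. Among the entries called in obese mice these were 34 of 767 higher in VAT and 34 of 401 higher in SAT. All of the former and 32 of the latter lay further toward the called depot in obese than in lean mice. In lean mice some of these, such as Hephl1 and Hspb7, had the opposite sign. The obese libraries enter both tests, so this direction is not independent of the call. In lean mice, 498 entries were called higher in VAT and 225 in SAT. Of these, 340 were also called higher in VAT in obese mice (44.3% of the obese list and 68.3% of the lean one), and 118 higher in SAT (29.4% and 52.4%). Wt1 and Nkx2-3 had no counts in SAT of either diet. No change with obesity was detected for Upk3b (10.86 ± 0.31 in lean mice) or Hoxc10 (-4.02 ± 0.40), at adjusted p of 0.98 and 0.88.

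Hephl1 (chr9:14963137-15023415), a copper-dependent ferroxidase, had the smallest adjusted p of this test among the called genes. It was at 46.1, 43.6, 27.4 and 35.2 CPM in SAT and 13.2, 15.5, 8.76 and 13.1 in VAT of obese mice (-1.57 ± 0.15). In lean mice the order was opposite (2.69 ± 0.21), and the change was -4.25 ± 0.27 (adjusted p = 2.0e-09). Hspb7, a small heat shock protein, also turned, with 2.12 ± 0.14 in obese and -1.23 ± 0.27 in lean mice (change 3.36 ± 0.38, adjusted p = 1.3e-05).

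Several lipogenic genes changed their depot order with obesity. Of the 25 tested genes of fatty acid synthesis, elongation and desaturation, the depot difference changed for 10, against 2.17% of all entries, and in all 10 it was more toward SAT in obese mice. Elovl6, which lengthens fatty acids, was higher in VAT of lean mice (1.74 ± 0.11) and lower in VAT of obese mice (-0.53 ± 0.11), a change of -2.26 ± 0.16 (adjusted p = 6.2e-09). Me1 turned from 0.86 ± 0.15 to -1.41 ± 0.14 and Scd2 from 0.77 ± 0.11 to -0.85 ± 0.12 (both at an adjusted p of 1.2e-06). Fasn was at 1.09 ± 0.13 in lean mice and not detectably different between depots in obese mice (change -1.33 ± 0.19, adjusted p = 0.0003). The changes of these 4 genes kept their direction and their side of the threshold in every alternative run for this test, which did not include library totals. Of 23 genes of triglyceride synthesis and lipid droplets 5 changed, and of 25 genes of the citrate cycle 4, all of them toward SAT. Of 15 genes of MHC class II presentation 5 changed, as did 5 of 16 of lipid-associated macrophages, all toward VAT.

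Gpnmb was higher in VAT of obese mice and not detectably different in lean mice (-0.31 ± 0.29), with a change of 2.92 ± 0.40 (adjusted p = 0.00021). Slc15a3, a lysosomal peptide transporter of myeloid cells, changed likewise, from -0.07 ± 0.24 to 1.90 ± 0.19 (adjusted p = 0.001), and H2-Ab1 from 0.60 ± 0.12 to 1.70 ± 0.12 (adjusted p = 0.00068). Aldh1a2 was already higher in lean VAT (3.75 ± 0.17) and more so in obese mice (change 1.46 ± 0.23, adjusted p = 0.001). Of the B cell genes, Pou2af1 (change 1.84 ± 0.36), Pax5 (1.74 ± 0.41) and Blk (1.78 ± 0.43) differed, at adjusted p of 0.0064, 0.024 and 0.028, and for Ms4a1 no change was detected (0.88 ± 0.33, adjusted p = 0.18). Without the mouse as a block the adjusted p was 0.185, 0.177 and 0.165 for the first 3, and Pax5 and Blk also lost their calls when lean mouse 3 or 4 or obese mouse 2 or 4 was left out (adjusted p between 0.059 and 0.139).

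On the SAT side, Tmem179 (-1.31 ± 0.17, adjusted p = 7.8e-05), the cytoskeletal linker Epb41l2 (-1.71 ± 0.26, 0.00087), B3galt2 (-1.41 ± 0.22, 0.00088) and Paqr9 (-1.10 ± 0.17, 0.001) differed more between depots in obese than in lean mice. The entry Gm39741 ran the other way, with a depot difference of -2.92 ± 0.19 in obese and -4.42 ± 0.29 in lean mice, and lost its call without lean mouse 3 or 4 or obese mouse 1, 2 or 3 (adjusted p between 0.0673 and 0.135) and with DESeq2 (0.1). Without the mouse as a block the adjusted p was 0.0545 for Gm39741, 0.0501 for Tmem179 and 0.191 for Paqr9.

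**Figure D5:**
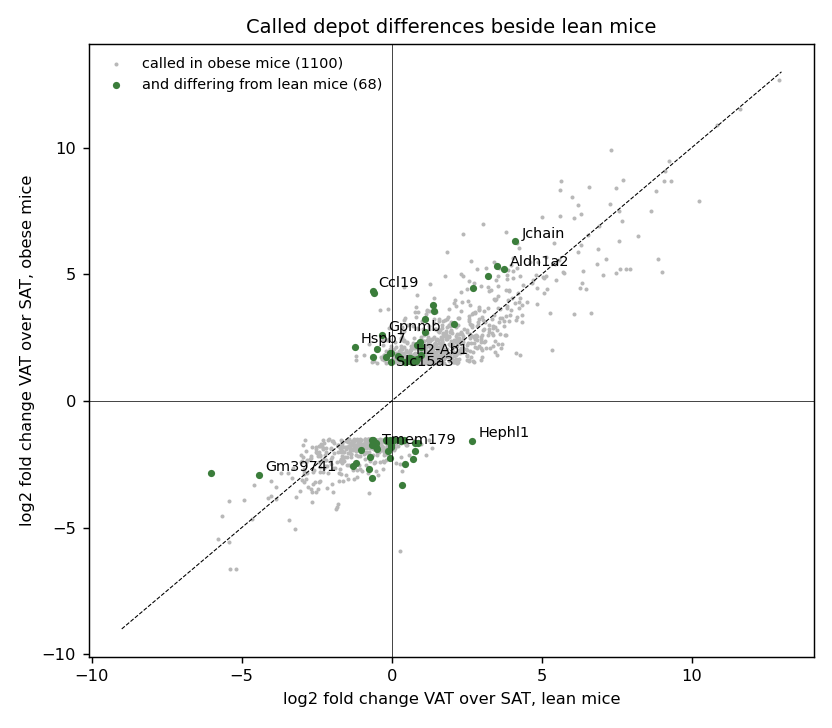
Log2 fold change of VAT over SAT in obese mice (vertical axis) against lean mice (horizontal axis) for the 1168 entries called in obese mice, with the line of equality dashed. Green points are the 68 entries whose depot difference changed with obesity at an adjusted p below 0.05. Hephl1 and Hspb7 lie in quadrants of opposite sign.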

How the data were processed

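Poly-A RNA of inguinal SAT and mesenteric VAT was sequenced as directional paired-end libraries on an Illumina NextSeq. Per the labels and the study's methods, the authors trimmed reads with Trim Galore (0.6.6 in the labels, whereas the methods give another version), aligned them with HISAT2 2.2.0 to GRCm39 with RefSeq annotation, and counted them per transcript with HTSeq 0.13.5. The strand and multi-mapping settings are not given in the sources used here. The deposited table holds raw counts and CPM for 130343 entries, of which 106834 carry a symbol.

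Counts of the 11694 entries that exceeded 1 CPM in 3 or more of 8 libraries were tested with edgeR 4.0.16 (TMM factors, quasi-likelihood test, Benjamini-Hochberg adjustment, R 4.3.3), with depot and mouse as terms. Obese and lean mice were compared by the interaction of depot and obesity over 13288 entries, with the mouse as a block. SE is the log2 fold change divided by the root of F. The mouse numbers of the labels pair the libraries, since both depots came from the same animal. Correlations of same-mouse deviations from the depot means were between -0.010 and 0.124. For different mice they were between -0.174 and 0.132, so these values do not tell the pairs apart. Exact sign-flip permutation tests over 4 pairs cannot give a two-sided p below 0.125. Intervals and limits from 0 counts cover counting error only, and over a group 3 counts correspond to 0.058 CPM in SAT and 0.0774 in VAT. Data were simulated from the fitted means and dispersions, with the tested effect removed and then given to 200 entries. In the depot fit 92.0% of changes of log2 2 and 94.6% of changes of log2 3 were recovered, with 1.58% false calls. In the obese against lean fit these were 61.7% and 75.5%, with 6.76% false. Such shares hold for that setting and are not error rates of the calls above.

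The comparison, lists and named genes were chosen with earlier results of these data known. Genes named were, in each direction, the 10 called with the largest change, no overlap of depots and a mean of at least 10 CPM, the 10 with the smallest adjusted p, the 5 most abundant, up to 5 called members of each list with others by value, and the 5 called with the smallest adjusted p against lean mice. Further list members, such as Foxf1, Foxf2, Hoxc9, Hoxa10, Twist1 and Itgax, were named after their values were seen. Some genes that the rule names are not reported here. Alternatives were RLE size factors, other filters, the current default of edgeR's quasi-likelihood fit, no block, DESeq2 1.42.0, limma 3.58.1 with voom, counts summed per symbol, all 16 libraries and each mouse left out. Library totals as the scaling were added after seeing the data.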

Additional observations from a re-analysis of the deposited data

Results flagged for a closer look

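In 28 of 454 groups of 4 libraries (6.17%), 1 library stood apart from the other 3 by more than Dixon's 95% limit, which chance exceeds in about 1 of 20 groups. The total count of VAT of mouse 1 (2247737) was far below the others, and the share of counts taken by Scd1 in VAT of mouse 4 (12.46%) was below the 18.02% to 18.49% of the other VAT libraries. The summed mast cell level of SAT of mouse 4 (85.65 CPM) was above the other SAT libraries.

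By gene, each value is set against the other libraries of the same depot. SAT of mouse 1 was the highest for Emx2 (4.999 CPM against 2.72 to 2.77). SAT of mouse 2 was the highest for Krt19 (0.61 CPM against 0.133 to 0.15) and Sdc1 (0.915 CPM against 0.374 to 0.464). SAT of mouse 2 was the lowest for Pdcd1 (0.102 CPM against 1.04 to 1.2). SAT of mouse 3 was the highest for Cd79a (3.51 CPM against 2.09 to 2.17), Cd79b (0.861 CPM against 0.374 to 0.448), Fgf1 (0.0662 CPM against 0 in each of the others), Krt8 (0.133 CPM against 0 in each of the others) and Ucp1 (4.97 CPM against 1.57 to 1.72). SAT of mouse 4 was the highest for Foxc2 (0.599 CPM against 0 to 0.102) and Gpm6a (0.0748 CPM against 0 in each of the others). SAT of mouse 4 was the lowest for Blk (0.823 CPM against 1.32 to 1.42). VAT of mouse 1 was the highest for Actg2 (81.3 CPM against 2.5 to 13.4), Mzb1 (114 CPM against 27.6 to 34.9), Rspo1 (16.9 CPM against 5.78 to 7.38), Sdc1 (5.65 CPM against 0.548 to 1.38) and Txndc5 (44.4 CPM against 8.84 to 9.95). VAT of mouse 2 was the highest for Wnt2 (0.0782 CPM against 0 in each of the others). VAT of mouse 3 was the highest for En1 (0.0913 CPM against 0 in each of the others). VAT of mouse 4 was the highest for Clu (41.3 CPM against 26.7 to 29), Gpnmb (1010 CPM against 190 to 233), Il1a (5.59 CPM against 1.95 to 2.26) and Tbx18 (2.999 CPM against 1.46 to 1.56). VAT of mouse 4 was the lowest for Irs2 (146 CPM against 209 to 220) and Lpl (13520 CPM against 17500 to 17970). Where the others are at 0, the value stands for 1 count or a few counts.

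The depot difference differed between obese and lean mice, by the interaction test at an adjusted p below 0.05, for 36 genes named in the text. The obese minus lean change in log2 VAT over SAT was positive for Agt (2.4), Aldh1a2 (1.46), Blk (1.78), Ccl19 (4.96), Cd74 (0.862), Gm39741 (1.52), Gpnmb (2.92), H2-Aa (1.05), H2-Ab1 (1.11), H2-Eb1 (0.987), Hspb7 (3.36), Itgax (1.55), Jchain (2.19), Pax5 (1.74), Pou2af1 (1.84), Slc15a3 (1.98) and Thbd (0.872). It was negative for Acsl1 (-1.3), B3galt2 (-1.41), Cd36 (-0.772), Cldn5 (-0.815), Cxcl12 (-0.999), Dlat (-0.728), Elovl6 (-2.26), Epb41l2 (-1.71), Fasn (-1.33), Gpd1 (-0.69), Hcar2 (-0.962), Hephl1 (-4.25), Hilpda (-1.39), Hk2 (-1.36), Me1 (-2.26), Paqr9 (-1.1), Plin1 (-0.771), Scd2 (-1.61) and Tmem179 (-1.31). The adjusted p ran from 2e-09 for Hephl1 to 0.042 for Cldn5. Of the 36 genes, 16 kept their direction and their side of the threshold in every alternative of this test that held them. Without the mouse as a block the adjusted p was 0.0719 for Agt, 0.0696 for Ccl19, 0.112 for Cd74, 0.426 for Jchain and 0.444 for Hilpda, and it also rose above 0.05 for Acsl1, Cd36, Cldn5, Gpd1, Hcar2, Hk2 and Plin1. Leaving out 1 mouse gave up to 0.0992 for Agt (without obese mouse 3), 0.18 for Ccl19 (without lean mouse 3), 0.108 for Cd74 (without obese mouse 4), 0.107 for Jchain (without lean mouse 3), 0.0825 for Hilpda (without lean mouse 2) and 0.0688 for Itgax (without lean mouse 4), and ended the calls of Cd36, Cldn5, Gpd1 and Plin1 too. Jchain was at 0.0876 with DESeq2, and Cxcl12 at 0.465 with its transcripts summed.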

How the results depend on the processing

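The 767 and 401 calls became 744 and 413 with RLE size factors, 725 and 400 with DESeq2, and 743 and 369 with no replicate block, the pairing by mouse left out. Library totals gave 1152 higher in VAT and 213 in SAT, or 3744 and 796 at any size, and held 767 of the 767 and 213 of the 401 calls. That scaling adds about the same amount to every difference, and it reversed the sign of Adipoq (0.002258). It also took the depot difference of Acadl, Adh1, Cxcl12, Dgat2, Elovl6, Gzma, H2-DMa, Hoxb9, Hsd11b1, Irs2, Krt20, Pparg, Rbp7 and Retsat, all lower in VAT, above an adjusted p of 0.05, and Ccl2 below it. Without a filter 610 entries were called higher in SAT. Leaving out 1 mouse gave 547 to 779 and 271 to 363 calls, and 1341 to 1836 and 1173 to 1589 at any size, the lowest without mouse 4. The count of 288 differing between obese and lean mice was 462 with DESeq2, 128 with no replicate block, and 134 to 403 with 1 mouse left out, and the cause was not tested. Of 145 called genes in the text, 136 kept their direction and their side of the threshold of adjusted p in every alternative that tested them. None reversed. These were 1993 comparisons, since an entry that an alternative filtered out was not compared there.

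With TMM-scaled in place of deposited CPM, the summed marker levels (mean log2 VAT over SAT) were -0.653 for adipocytes, -0.466 for mesothelium, 0.0155 for progenitors, -0.971 for lipid-associated macrophages (nearly all of it Lpl), 0.238 for dendritic cells, 1.36 for lymphatic endothelium, -0.579 for smooth muscle, 0.707 for skeletal muscle, -1.09 for exocrine pancreas and -0.213 for Schwann cells. Depth limited low genes most in VAT of mouse 1, where 0 counts allow up to 1.33 CPM.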

Other observations

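Of 17 tested genes of cell division none was called, and at any size 10 were higher in VAT and none in SAT, with a median log2 difference of 0.66. The mitotic kinase Plk1 was at 3.56 ± 1.38 CPM in SAT and 9.16 ± 4.77 in VAT (1.32 ± 0.27, adjusted p = 0.00071), the replication helicase subunit Mcm2 at 14.7 ± 3.14 and 28.5 ± 4.88, and Rrm2, which supplies deoxynucleotides, at 12.4 ± 2.09 and 25.9 ± 9.36. Cdk1 was at 18.1 ± 2.38 and 13.96 ± 3.17 CPM (-0.42 ± 0.19, adjusted p = 0.087), and without mouse 1 it was lower in VAT (-0.58, adjusted p = 0.0314).

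Interferon-stimulated genes hardly differed, with none of 23 called, 3 higher in VAT and 1 in SAT at any size. The antiviral gene Rsad2 was at -0.70 ± 0.12 and Bst2, which tethers virions, at 0.45 ± 0.13. Bst2 missed the threshold with no filter on low counts (adjusted p = 0.11). None of 4 tested mast cell genes passed the test, and the summed level of that list ran from 57.7 to 85.7 CPM in SAT and from 30.7 to 108.7 in VAT. Among Schwann cell and nerve genes, Erbb3 (1.54 ± 0.22) and Tubb3 (2.90 ± 0.43) were called higher in VAT and Ret higher in SAT. Of adipogenic regulators, Klf5 was called higher in VAT (1.94 ± 0.53), Klf2 was at 1.47 ± 0.16 and Pparg, for 1 of its 13 transcripts, at -1.27 ± 0.37 (adjusted p = 0.0642 without mouse 3 and 0.128 without mouse 4).

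Of dendritic cell genes 5 of 9 were called higher in VAT, among them Xcr1 (1.84 ± 0.25), Batf3 (1.82 ± 0.33) and Flt3 (2.27 ± 0.39). Of 3 tested neutrophil and monocyte genes 1 was called higher in VAT. The list's summed level, in CPM as deposited, was higher in VAT in 2 of 4 mice. The mean log2 difference of this sum was 0.05, or -0.298 with TMM factors. The neutrophil gene S100a8 of this list was at 15.6 ± 1.36 CPM in SAT and 5.92 ± 1.93 in VAT (-1.48 ± 0.20, adjusted p = 7.1e-06). In collagens, Col4a4 of the basement membrane was called higher in SAT (-1.67 ± 0.22) and Col6a6 higher in VAT (1.53 ± 0.36). Of 4 tested clock genes none was called.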
